A study of Mus musculus with 2 samples.

Results

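*Egr2*-positive, *Prss56*-negative glia were taken here as single cells with at least 1 unique molecular identifier (UMI, 1 counted RNA molecule) of *Egr2*, at least 1 of *Sox10*, and none of *Prss56*, *Sox8* and *Pou4f1*. They numbered 43 cells on E11.5 and 77 on E12.5, together 120 of the 4403 cells that passed the filters on depth and mitochondrial RNA. Both libraries came from embryos that carried Egr2Cre/+, in which the *Egr2* promoter drives Cre from 1 allele, and the Rosa26 Tomato reporter, in which any cell that has once made Cre stays Tomato-positive. All cells compared are therefore sorted Tomato-positive cells of the meninges with dorsal root ganglia and both nerve roots, labelled as boundary cap cells, and there was no control genotype. A Tomato-positive cell need not make *Egr2* when it is sorted, and reads of the Cre and wild-type alleles were not separated. Each stage was 1 library of pooled embryos, so no test between groups or stages was made. Intervals are 95% exact Poisson or binomial ones and cover counting error only.

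*Egr2*, also called Krox20, encodes a zinc finger transcription factor that Schwann cells need to form myelin, and NAB1 and NAB2 are the co-factors that bind it. In the embryo it also marks boundary cap cells, neural crest derivatives that sit where spinal roots enter and leave the central nervous system and give rise to Schwann cell precursors and some dorsal root ganglion cells. *Prss56* encodes a secreted serine protease and is the other usual boundary cap marker. *Sox10* encodes a factor that neural crest and all peripheral glia share, *Sox8* its relative, and *Pou4f1* a factor of sensory neurons, so the conditions remove neurons and also those glia in which *Sox8* was detected.

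*Egr2* was measured at the limit of detection. Of the 43 cells at E11.5, 34 held 1 *Egr2* UMI, 4 held 2 and 5 held 3, and of the 77 at E12.5, 59 held 1, 16 held 2 and 2 held 3. The level summed over the cells was 99.34 UMIs per 1000000 (CPM; 75.24 to 128.7) on E11.5 and 173 (140.3 to 211) on E12.5. Cells that held *Egr2* and *Prss56* together had 91.73 and 177.8 CPM of *Egr2*. The *Egr2* level of the *Prss56*-negative cells thus lay within a counting interval of that of the double-positive cells in both libraries. The cells were chosen by the UMI counts of *Egr2*, *Prss56*, *Sox10*, *Sox8* and *Pou4f1*, so these values only describe the choice.

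Most cells lay next to a condition. The *Sox10* condition was met by 1 UMI in 5 of the 43 cells on E11.5 and 23 of the 77 on E12.5. On the other side of the *Prss56* condition stood 36 and 100 double-positive cells, with a median of 2 and 3 *Prss56* UMIs, of which 17 and 28 had 1. The *Sox8* and *Pou4f1* conditions removed a further 23 and 32 cells, of which 10 and 18 held *Sox8*, and 15 and 23 of these held 1 UMI of the 2 genes in all. Of all cells with an *Egr2* UMI, 131 on E11.5 and 302 on E12.5, 19 and 70 held no *Sox10*. In *Pou4f1*-positive, *Sox10*-negative neurons, 2.885% of 208 cells (1.066 to 6.173) and 2.222% of 1350 (1.504 to 3.157) held an *Egr2* UMI, at median depths of 11551 and 6469 UMIs. These neurons were sorted as Tomato-positive too, so their share is not a measured background.

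The share of cells with *Egr2* was also read in cells with and without *Prss56*. It rests on the genes of the rule and is a description. Among *Sox10*-positive cells without *Sox8* and *Pou4f1*, 36.73% of 98 *Prss56*-positive cells (27.22 to 47.07) and 19.11% of 225 *Prss56*-negative cells (14.19 to 24.87) held *Egr2* at E11.5. At E12.5 the shares were 29.5% of 339 (24.69 to 34.67) and 9.897% of 778 (7.89 to 12.21). All 4 shares were above those of the neurons. The shares depend on depth, so they were also taken within tertiles of UMIs per cell. At E12.5 the *Prss56*-positive share was the higher in each tertile, at 24.64% against 9.829%, 23.23% against 7.692% and 42.16% against 12.18%. At E11.5 it was the lower in the shallow tertile, at 5.556% against 12.22% with 1 *Egr2*-positive cell of 18, and the higher in the others, at 26.32% against 20.29% and 59.52% against 27.27%. After each cell was thinned to 2000 UMIs the shares were 8.108% and 3.846% at E11.5, with overlapping intervals, and 11.79% (7.779 to 16.91) and 4.378% (3.116 to 5.96) at E12.5.

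**Figure D1:**
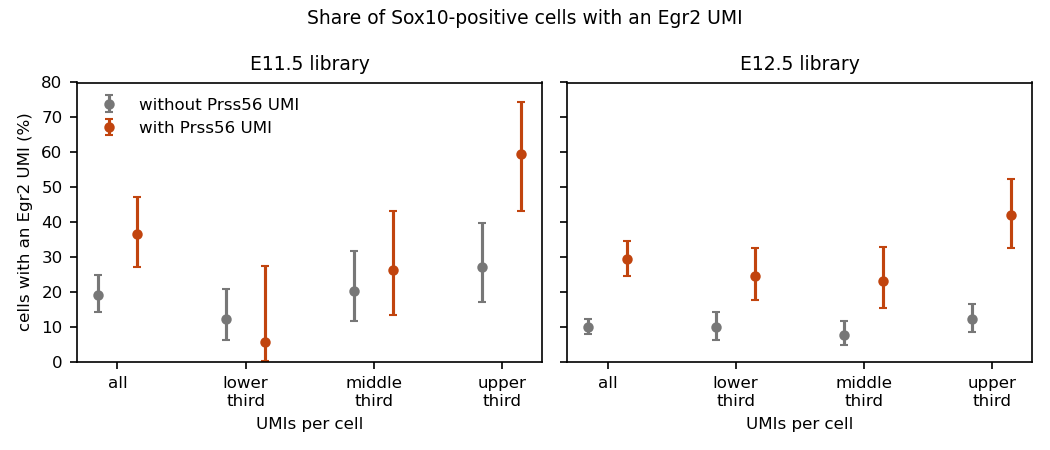
Share of Sox10-positive cells without Sox8 and Pou4f1 that held an Egr2 UMI (y axis, percent), for cells with and without a Prss56 UMI, over all cells and in tertiles of UMIs per cell (x axis). Points are shares and bars 95% exact binomial intervals; the share with Prss56 is the higher in all tertiles of the E12.5 library but not in the lowest tertile of the E11.5 library.

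The comparison cells were chosen with the same filters and the same conditions on *Sox10*, *Sox8* and *Pou4f1*. Cells with neither *Egr2* nor *Prss56* numbered 182 on E11.5 and 701 on E12.5, and *Prss56*-positive cells, with or without *Egr2*, numbered 98 and 339. The *Egr2*-positive, *Prss56*-negative glia held 573800 UMIs at E11.5, with a median of 12933 per cell and a range of 3274 to 27981. At E12.5 they held 560814 UMIs, with a median of 6400 and a range of 1157 to 24418. The median was 11332 and 6189 in the cells with neither gene, and 13812.5 and 5698 in the *Prss56*-positive cells. The 2 libraries shared 9 barcodes, none of them among these glia.

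The cells held glial genes, while the sum of boundary cap markers did not set them apart from those with neither gene. The neurons set beside them were chosen without *Sox10* and with *Pou4f1*, the reverse of the rule. Higher glial genes than in those neurons thus largely describe the choice. Of genes the conditions did not use, *Fabp7*, a fatty acid binding protein of early glia, reached 1662.6 and 2879.7 CPM, against 158.6 and 294.9 in the neurons. *Cdh6*, a cadherin of migrating neural crest, reached 488 and 426.2 CPM against 73.18 and 40.83. *Erbb3*, the neuregulin receptor of Schwann cells, reached 115 and 110.6 CPM against 10.58 and 5.895. Against the cells with neither gene the lists with glial genes were mixed. *Fabp7* was at 0.9272 (0.8624 to 0.9962) and 0.688 (0.6535 to 0.7239) of their level. The Schwann lineage sum was at 0.9407 (0.897 to 0.9862) and 0.886 (0.8547 to 0.9182). The satellite glia and ganglion progenitor sum was at 0.9272 (0.8871 to 0.9689) and 0.8055 (0.7802 to 0.8315). None of the 12 and 10 genes considered in these lists was called, that is at least 1.5-fold higher or lower in both libraries. Of all 4006 genes considered, 0.3% were called higher and 0.424% lower, so counts of none in lists this short say little about them. Both lists hold *Fabp7*, and the median log2 ratio of the Schwann lineage genes considered was -0.072 and 0.192. The ErbB and neurotrophin receptor sum was at 1.082 (0.9537 to 1.225) and 1.349 (1.228 to 1.48), with none of 6 genes considered called. The myelin sum was at 0.9664 (0.8584 to 1.086) and 1.27 (1.178 to 1.367). The 6 boundary cap genes beside *Egr2* and *Prss56*, namely *Wif1*, *Hey2*, *Npr3*, Cdh7, *Sema6a* and Ntn5, summed to 388.6 CPM (339.3 to 443.1) and 577.7 (516.5 to 644.2). The cells with neither gene were at 384.8 and 619.8 CPM, within those intervals, and the *Prss56*-positive cells at 468.9 and 750.9, above them.

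Markers of other cell types were low in sum, apart from matrix genes. The 22 neuronal genes summed to 470.5 and 518.9 CPM, against 12927.4 and 15276.4 in the neurons, with *Gap43* the most abundant at 156.8 and 197.9. Still, 60.47% and 40.26% of the glia held 3 or more of them, beside 56.59% and 42.37% of the cells with neither gene. Of 14 mesenchymal genes, 5 and 12 were detected, with *Postn* the most abundant at 303.2 and 328.1 CPM. Twist1 and Twist2 were at 0 in both libraries, and Foxc1, Foxc2, Pdgfra and Prrx1 at 0 at E11.5 but detected at E12.5. The glia with 3 or more mesenchymal genes were 53.49% and 64.94%. That share was 44.51% and 39.09% in the cells with neither gene, 75.51% and 59.29% in the *Prss56*-positive cells, and 2.404% and 1.926% in the neurons. The mesenchymal sum was 643.1 and 1027.1 CPM, against 522.8 and 841.8 in the cells with neither gene, a ratio of 1.23 (1.089 to 1.386) and 1.22 (1.116 to 1.332). Of 7 autonomic genes, *Gata2* gave 2 and 6 UMIs and was the most abundant, with Phox2a, Hand2, Th and Cartpt at 0 in both libraries. The 10 myeloid genes gave 2 UMIs on E11.5 and 105 on E12.5, and 101 of the latter came from 1 cell of 24418 UMIs with a doublet score of 0.2 or more. The endothelial, erythroid, melanoblast, muscle, epithelial and central nervous system lists each gave 22 UMIs or fewer per library, the pericyte list 38 and 20, and the cartilage list 95 and 71, mostly *Col11a1*.

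Few genes passed 1.5-fold in both libraries between *Egr2*-positive, *Prss56*-negative glia and the cells with neither gene. Of 4006 genes with at least 20 expected UMIs in each library, the median log2 ratio was 0.011 on E11.5 and -0.008 on E12.5. In both libraries 12 genes were at least 1.5-fold higher, 0.3% of those considered, and 17 at least 1.5-fold lower, 0.424%. Taken singly, the E11.5 library had 249 genes past 1.5-fold in either direction and the E12.5 library 252, those called in both included, and 6 genes passed in opposite directions. The counts in both libraries turned to 5 higher and 34 lower with each cell weighted equally, to 33 and 105 against comparison cells without the *Sox8* and *Pou4f1* conditions, and to 35 and 72 or 2 and 4 at minima of 10 or 50 UMIs. These calls rest on size alone, and the members and gene lists were chosen with earlier results of these data known.

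**Figure D2:**
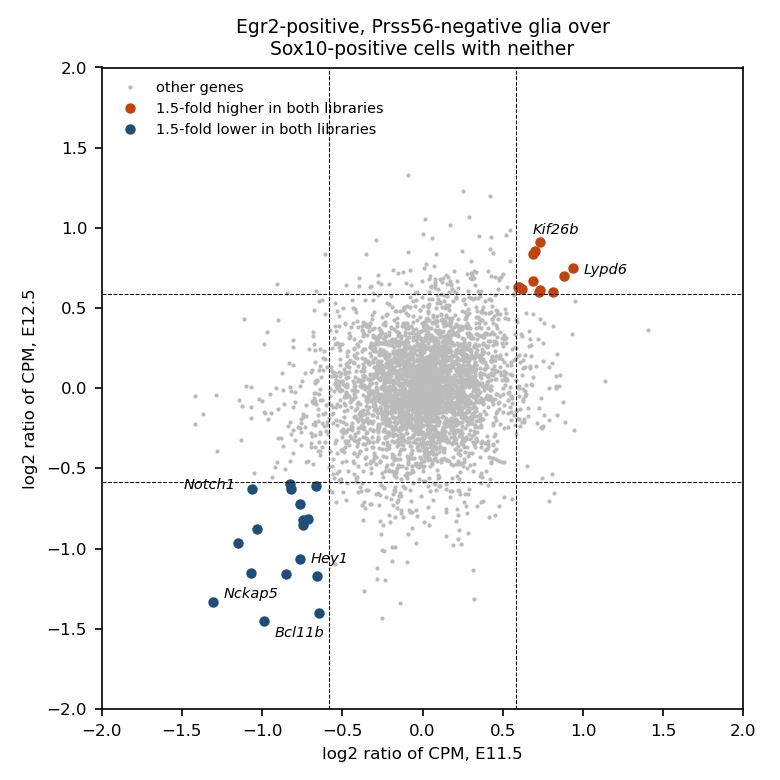
Log2 ratio of CPM in Egr2-positive, Prss56-negative glia over Sox10-positive cells with neither gene, at E11.5 (x axis) and E12.5 (y axis), 1 point per gene of 4006. The dashed lines mark 1.5-fold; 12 genes lie past them in the upper right and 17 in the lower left.

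*Lypd6*, a membrane-anchored protein of the Ly6 family that modulates Wnt receptors, led the higher genes. It was at 97.59 CPM (73.72 to 126.7) on E11.5 and 126.6 (98.88 to 159.7) on E12.5, against 50.87 and 75.13 in the cells with neither gene, a ratio of 1.918 (1.359 to 2.685) and 1.685 (1.286 to 2.182). *Kif26b*, a kinesin-like protein of the Wnt5a pathway, was at 109.8 and 119.5 CPM against 65.98 and 63.45, a ratio of 1.664 (1.212 to 2.264) and 1.883 (1.421 to 2.464). Both genes were seen in many cells, *Lypd6* in 26 of 43 and 38 of 77, and *Kif26b* in 25 and 39. Neither was particular to the glia. In the *Prss56*-positive cells *Lypd6* was at 80.12 and 179.5 CPM and *Kif26b* at 155 and 191.8. *Lypd6* lies at chr2:49956422-50083589 and *Kif26b* at chr1:178356690-178766765 of mm39, and the counts are per gene.

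The other higher genes had several roles. *Fxyd3*, a regulator of the sodium pump, was at 95.85 and 69.54 CPM against 58.93 and 38.34. *Chl1*, an adhesion molecule of the L1 family, was at 217.8 and 210.4 CPM against 131 and 137.7, a ratio of 1.663 (1.333 to 2.067) and 1.528 (1.244 to 1.863). Of the 14 adhesion and integrin genes considered, *Chl1* alone passed in both libraries. *Vat1l*, *Akr1b8*, an aldo-keto reductase with close relatives, and the long non-coding RNA *Gm29521* were 1.588 to 1.845-fold higher, with all intervals above 1. In both libraries *Fxyd3*, *Chl1*, *Vat1l*, *Akr1b8* and *Gm29521* were also at least 1.5-fold higher in *Prss56*-positive cells than in cells with neither gene. *Scube1*, a secreted protein with EGF repeats, was at 54.03 and 53.49 CPM against 35.76 and 34.59, and its interval at E11.5 (0.9573 to 2.334) included 1.

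The remaining higher genes were *Arl6ip1*, *Tuba1c*, *Cep83* and *Bub1b*. *Arl6ip1*, which shapes the endoplasmic reticulum, was at 463.6 and 518.9 CPM against 301.2 and 337.7, a ratio of 1.539 (1.327 to 1.781) and 1.536 (1.351 to 1.743). *Tuba1c*, an alpha-tubulin with near-identical relatives, was at 113.3 and 108.8 CPM against 68.5 and 71.82. *Cep83*, a centriole protein, and *Bub1b*, a spindle checkpoint kinase, were 1.514 to 1.754-fold higher, with an interval for *Bub1b* at E11.5 (0.9872 to 2.279) that included 1. *Bub1b* was the only called gene of 26 considered in the list of 30 G2 and M phase genes, whose median log2 ratio was 0.096 on E11.5 and 0.466 on E12.5, beside 0.011 and -0.008 over all genes. The list summed to 4912.9 CPM against 4579 at E11.5, a ratio of 1.073 (1.028 to 1.119), and 6027 against 4473.8 at E12.5, a ratio of 1.347 (1.299 to 1.397). The 25 S phase genes, 21 considered and none called, had sum ratios of 1.112 and 0.8931. Cells with at least 2 of 6 cycling genes were 95.35% of the glia on E11.5 and 58.44% on E12.5, against 76.92% and 55.35%. After thinning they were 46.51% (31.18 to 62.35) and 43.42% (32.08 to 55.29), against 42.31% and 37.05%, within those intervals. *Arl6ip1* was among the leading genes of an E12.5 cluster with 99.13% cycling cells. That cluster held 11 of the 77 glia and 32 of the 701 cells with neither gene, and its part in the ratio of *Arl6ip1* was not tested. The part of the cell cycle in the other differences was not tested, since without cycling cells 2 members were left at E11.5.

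The lower genes were led by *Nckap5*, a microtubule-associated protein, at chr1:125841251-126758536. It was at 27.88 CPM (15.94 to 45.28) on E11.5 and 46.36 (30.28 to 67.93) on E12.5, against 69.01 and 117, or 2.475-fold (1.47 to 4.452) and 2.523-fold (1.703 to 3.899) lower. *Ctnnd2*, a delta-catenin, was at 99.34 and 319.2 CPM against 163.2 and 560.5, or 1.643-fold (1.237 to 2.217) and 1.756-fold (1.509 to 2.055) lower. In neither gene did the counting intervals of the glia reach the level of the comparison cells. *Bcl11b*, a zinc finger factor, was at 36.6 and 19.61 CPM against 72.53 and 53.54, and *Nav2*, a cytoskeletal protein of growing axons, at 64.48 and 53.49 against 116.4 and 119.2. *Ppp1r14a*, an inhibitor of myosin phosphatase, was at 27.88 and 26.75 CPM against 58.43 and 59.49. The glia and the cells with neither gene shared clusters, but in different proportions. Some of these lower genes were among the leading genes of clusters. Of the E12.5 clusters with *Ctnnd2* among the leading genes, the larger held 5 of the 77 glia and 211 of the 701 cells with neither gene, and the smaller 6 and 82. The E11.5 cluster with *Ctnnd2* and *Nckap5* among its leading genes held 1 of the 43 glia and 17 of the 182 cells with neither gene, and *Ppp1r14a* was among the leading genes of the E11.5 cluster led by *Cck*. The part of cluster makeup in the lower genes was not tested.

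*Notch1*, a receptor that holds precursors undifferentiated in many tissues, and *Hey1*, a repressor it induces, were both among the 17. *Notch1* was at 40.08 CPM (25.41 to 60.15) and 69.54 (49.45 to 95.07) against 83.61 and 107.3, or 2.086-fold (1.344 to 3.382) and 1.543-fold (1.112 to 2.197) lower. *Hey1* was at 26.14 and 26.75 CPM against 44.32 and 55.96, from 15 UMIs in each library, and its interval at E11.5 (0.9742 to 3.157) included 1. Of the 20 Notch pathway genes 8 were considered, and the other 6 passed in neither direction in both libraries. Heyl was at 163.8 and 133.7 CPM against 183.3 and 136.4, and *Hey2* at 113.3 and 112.3 against 70.52 and 110.8. The median log2 ratio of the 8 was -0.534 and -0.389, and the 20 genes summed to 0.8144 (0.7266 to 0.911) and 0.8501 (0.7697 to 0.9371) of the level in the cells with neither gene.

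*Nrp1*, a receptor for semaphorins and VEGF, was the only called gene of 12 considered in the list of 41 guidance genes, at 61 and 78.46 CPM against 108.3 and 118.5. The remaining lower genes were *Bcl2l1*, which protects from cell death, *Tmem47*, *Pgpep1*, *Rsbn1l*, Ptprk, *Ubn2* and the non-coding RNAs *Nr6a1os*, *2610316D01Rik* and *2610035D17Rik*. The ratio of *Tmem47* at E11.5 had an interval (0.3268 to 1.018) that included 1. *Nr6a1os* lies antisense to *Nr6a1*, and whether counting used strand is not given in the sources used here. The genes that passed spanned more of the genome than most, with medians of 97.3 kb for the higher and 91.43 kb for the lower, beside 25.8 kb for all genes considered. Whether intronic reads were counted is not given either, and the part of gene span was not tested.

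No gene of the EGR, myelin or immediate early lists passed in both libraries, but only 1, 3 and 5 of their genes were considered. Of all 4006 genes considered, 0.3% passed as higher and 0.424% as lower. A count of none in such short lists is therefore near the share over all genes and says little about the lists. Of the 5 EGR and NAB genes other than *Egr2* only *Nab2* was considered, at 94.11 and 98.07 CPM against 89.15 and 73.59, a ratio of 1.056 (0.7634 to 1.439) and 1.333 (0.9832 to 1.777). Of 15 myelin genes 3 were considered and none passed in both libraries. The myelin sum was 639.6 against 661.8 CPM at E11.5, a ratio of 0.9664 (0.8584 to 1.086), and 1460.4 against 1149.8 at E12.5, a ratio of 1.27 (1.178 to 1.367). The difference between those ratios was not tested. The 24 immediate early genes, which respond to dissociation, had 5 considered and none called, and their sums stood at 0.9994 (0.9054 to 1.102) and 1.077 (0.9969 to 1.162) of the level in the cells with neither gene.

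The EGR motif, GCGNGGGCG on either strand, was looked for in the RefSeq promoters from 250 bases before to 50 after each gene's start (GRCm38.p6, a different build from the files). It was in 1 of 11 matched genes of those higher than the cells with neither gene, 2 of 16 of those lower, 0 of 2 of those higher than the *Prss56*-positive cells and 1 of 16 of those lower than there. It was in 13.48% of the 3235 matched genes considered, in 6.272% of all 27025 genes of the table and in 5.552% of its 32851 promoters. The match shares its GGGCG with the GC box GGGCGG. The windows of *Akr1b8* and *Src* are shown since *Akr1b8* was higher than in the cells with neither gene, *Src* was lower than in the *Prss56*-positive cells, and both hold the motif before the start, with the motif in capitals.
Akr1b8, chr6:34354089-34354117, + strand: gggaggggggGCGGGGGCGggaggggtct
Src, chr2:157424069-157424097, + strand, motif on the opposite strand: gttgggggggCGCCCCCGCgggcggagct
Among the EGR and NAB genes in the table, the promoter of Nab1 held 3 matches, at 141, 109 and 38 bases before the start, and those of *Egr2* and *Nab2* held none, nor did that of *Prss56*.

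Against *Prss56*-positive cells, few genes were higher. Of 4014 genes considered, 3 were at least 1.5-fold higher in both libraries, 0.0747%, and 21 at least 1.5-fold lower, 0.523%, with median log2 ratios of -0.016 and 0.001 over all genes. Taken singly, the libraries had 277 and 254 genes past 1.5-fold, those called in both included, and 8 genes passed in opposite directions. *Prss56* itself was at 0 by the rule. Without the E12.5 cell that held the myeloid UMIs, 5 genes were higher and 19 lower. With each cell weighted equally 8 were higher, with comparison cells weighted to the depths of the glia 6 were higher, and without the *Sox8* and *Pou4f1* conditions 12 were lower.

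The 3 higher genes were *Cdkn1c*, *Adgrb3* and *Tfap2a*. *Cdkn1c*, the cell cycle inhibitor p57, was at 66.23 CPM (46.86 to 90.9) on E11.5 and 119.5 (92.59 to 151.7) on E12.5 against 30.42 and 65.32, a ratio of 2.177 (1.363 to 3.471) and 1.829 (1.347 to 2.461). The cells with neither gene were higher still, at 160.7 and 156.4 CPM. Against *Prss56*-positive cells taken without the *Sox8* and *Pou4f1* conditions, the log2 ratio of *Cdkn1c* at E11.5 turned to -0.042. *Tfap2a*, the neural crest factor AP-2 alpha, was at 81.91 and 67.76 CPM against 47.48 and 44.31, with the cells with neither gene at 94.69 and 96.94. It was the only called gene of 5 considered among 19 neural crest factors. *Adgrb3*, an adhesion receptor of the brain, was at 54.03 and 108.8 CPM, a ratio of 1.776 (1.077 to 2.902) and 1.936 (1.4 to 2.652).

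The lower genes were led by *Gm29521*, *Apcdd1* and *Lin7a*. *Gm29521* was at 55.77 CPM (38.15 to 78.73) and 76.67 (55.49 to 103.3), or 2.408-fold (1.647 to 3.625) and 2.943-fold (2.153 to 4.119) lower than in the *Prss56*-positive cells, though it was higher than in the cells with neither gene. *Npy*, neuropeptide Y, was at 362.5 and 575.9 CPM, or 1.682-fold (1.443 to 1.968) and 1.915-fold (1.705 to 2.158) lower, with 214.6 and 433.8 in the cells with neither gene. *Apcdd1*, a membrane inhibitor of Wnt signalling, was at 26.14 and 53.49 CPM, or 2.98-fold (1.727 to 5.513) and 2.314-fold (1.584 to 3.497) lower. *Npy* and *Gm29521* thus stood above the cells with neither gene and below the *Prss56*-positive cells in both libraries. *Apcdd1* did too by its level, at 19.14 and 33.49 CPM in the cells with neither gene, but its interval against them at E11.5 (0.6979 to 2.542) included 1. The part of undetected *Prss56* among the glia in these middle levels was not tested.

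Others of the 21 were *Lin7a*, a scaffold of cell junctions, *Mdga2*, an adhesion protein of synapses, *Stk32b* and Prkcq, both kinases, *Plpp1*, a lipid phosphatase, *Stxbp6*, *Scrn1*, *Nudt19*, *Src* and *Frzb*, a secreted Wnt antagonist. *Mdga2* was 1.674-fold (0.9378 to 3.178) and 3.424-fold (2.491 to 4.825) lower, an interval that included 1 at E11.5. So did those of *Nudt19* (0.2831 to 1.05) and *Scrn1* (0.3003 to 1.011) on E11.5 and of *Stxbp6* (0.3776 to 1.005) on E12.5, given as ratios of the glia to the *Prss56*-positive cells. *Bcl2l1* and *2610316D01Rik* were lower than in both kinds of comparison cells. *Bcl2l1* was at 26.14 and 21.4 CPM, from 15 and 12 UMIs, and its E11.5 interval included 1 against the cells with neither gene (0.3389 to 1.106) and against the *Prss56*-positive cells (0.3147 to 1.066). That of *2610316D01Rik* included 1 against the *Prss56*-positive cells (0.342 to 1.173). The Notch list did not stand apart here, with none of 5 considered genes called and sum ratios of 0.966 (0.8552 to 1.089) and 1.022 (0.9191 to 1.134). The boundary cap list, 4 considered and none called, summed to 0.8289 (0.7083 to 0.9671) and 0.7693 (0.6808 to 0.8672) of the *Prss56*-positive level, and its member *Wif1*, a Wnt inhibitor, had log2 ratios of -0.446 and -1.555.

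**Figure D3:**
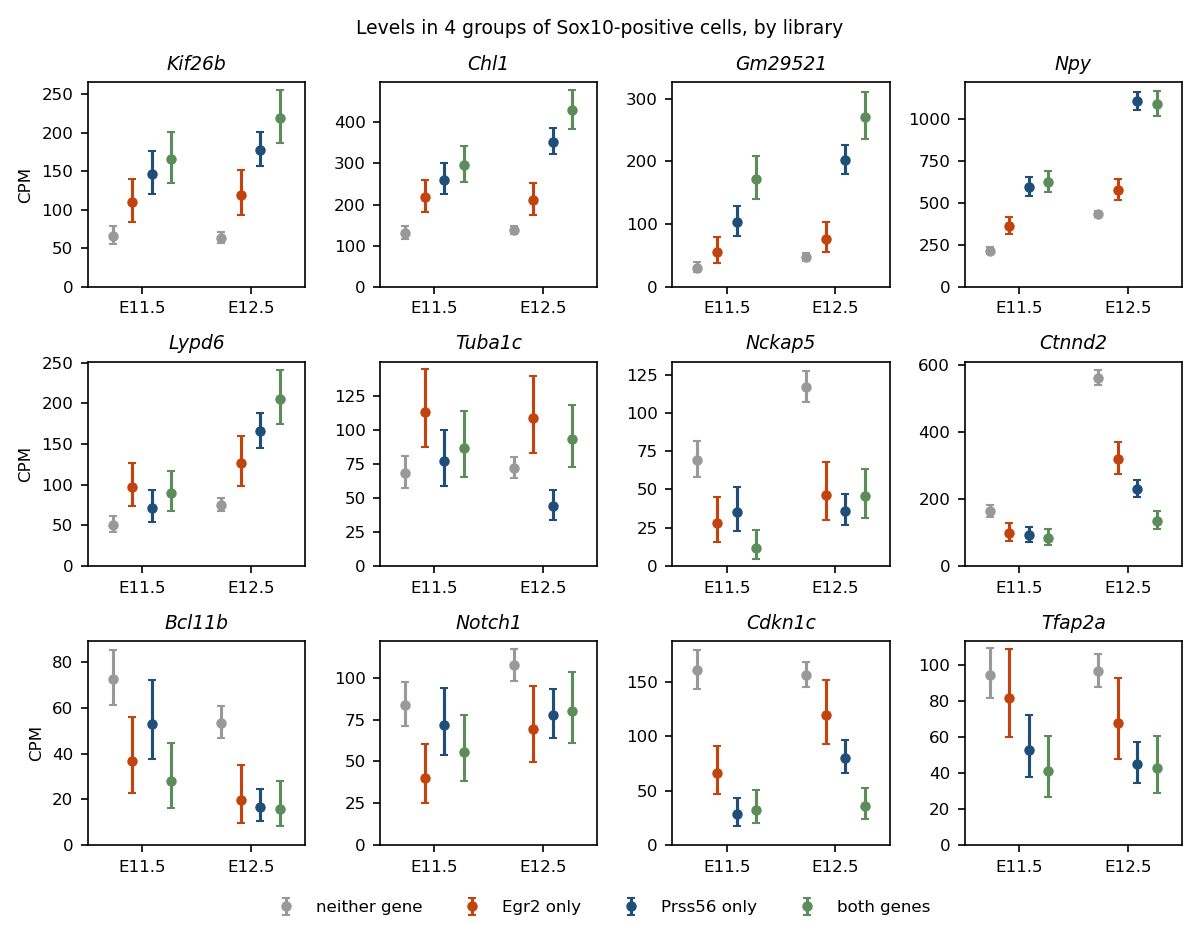
CPM of 12 genes (y axes) in 4 groups of Sox10-positive cells without Sox8 and Pou4f1 in the E11.5 and E12.5 libraries (x axes). Points are CPM of summed UMIs with 95% exact Poisson intervals, and Egr2 only marks the Egr2-positive, Prss56-negative glia; Npy runs from 214.6 in cells with neither gene through 362.5 to 625.7 in cells with both at E11.5.

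The genes that set *Prss56*-positive cells apart were then read in the *Egr2*-positive, *Prss56*-negative glia, a view added after the values were seen. Of 7194 genes considered between *Prss56*-positive cells and cells with neither gene, 106 were at least 1.5-fold higher in both libraries, 1.47%, and 55 lower, 0.765%. Members had no part in that choice, but the cells with neither gene are the base of both ratios, so chance in that base moves both the same way and the medians within a library are a description only. The median log2 ratio of the 106 was 0.849 and 0.952 in the *Prss56*-positive cells and 0.431 and 0.447 in the glia. That of the 55 was -0.876 and -0.948 in the *Prss56*-positive cells and -0.555 and -0.661 in the glia. Glia with undetected *Prss56* may share in these medians, and their part was not tested. *Sox10*-positive cells that held *Sox8* but no *Egr2*, *Prss56* or *Pou4f1* numbered 26 and 65. These *Sox8*-positive cells were at -0.006 and 0.282 for the higher genes and -0.608 and -0.467 for the lower.

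The genes were also chosen in 1 library and read in the other, where the base cells had no part in the choice. The medians of the glia were then smaller, and so were those of the *Prss56*-positive cells. The genes changed as well, since they had to pass 1.5-fold in 1 library and not in both. Which of these changes made the medians smaller was not tested. The 324 genes higher at E11.5, 4.5% of those considered, had a median at E12.5 of 0.339 in *Prss56*-positive cells, 0.178 in the glia and 0.118 in the *Sox8*-positive cells. The 325 genes higher at E12.5, 4.52%, had 0.403, 0.159 and -0.088 at E11.5. Of the lower genes, the 334 of E11.5, 4.64%, had -0.127, -0.183 and -0.052 at E12.5, and the 160 of E12.5, 2.22%, had -0.351, -0.304 and -0.247 at E11.5. The *Sox8*-positive cells moved in the direction of the *Prss56*-positive cells in 3 of these 4 readings.

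*Ephb1*, a receptor for ephrins, had the largest ratio of the 106, at 10.46 and 17.83 CPM in the glia, with 7.555 and 9.033 in the cells with neither gene and 36.35 and 72.63 in the *Prss56*-positive cells. It rests on 6 and 10 UMIs in the glia, and its ratio to the cells with neither gene had intervals (0.44 to 3.775 and 0.8817 to 4.007) that included 1. *Gm32255*, also among the 106 and singled out for its position, is a non-coding RNA at chr10:67332189-67371219 on the minus strand, next to *Egr2* at chr10:67371305-67378018 on the plus strand. It was at 36.6 CPM (22.65 to 55.94) and 96.29 (72.33 to 125.6) in the glia against 21.15 and 31.06 in the cells with neither gene, a ratio of 1.73 (0.9733 to 2.988) and 3.1 (2.222 to 4.27). Of the 77 cells of the E12.5 library, 30 held it.

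*Egr2*-positive, *Prss56*-negative glia were spread over most clusters of *Sox10*-positive cells. The clusters were made without the 5 genes of the rule, and most of the glia held 1 *Egr2* UMI. The spread therefore cannot show whether they are a state of their own. The glia fell into 7 of 8 clusters on E11.5 and 11 of 13 on E12.5. At E11.5 the cluster led by *Ngfr*, *Sorcs1* and *Gfra3* held 17 of the 43, 39.53% (24.98 to 55.59), and they made up 12.88% of its 132 cells, which were 25.29% of the 522 *Sox10*-positive cells. At E12.5 the cluster led by *Slc36a2* and *Cadm2* held 23 of the 77, 29.87% (19.97 to 41.38), and they made up 8.915% of its 258 cells, which were 16.67% of the 1548. The share in the fullest cluster was 20.93% at E11.5 with 15 components and 54.55% at E12.5 at a resolution of 0.5. The clusters led by neuronal or neurogenic genes held few of the glia, and some of them few comparison cells too. The E11.5 cluster led by *Cck*, with *Hes6* and *Dll1*, held 1 of the glia and 5 cells with neither gene among its 61. The E12.5 clusters led by *Igsf21* and *St18* and by *D130009I18Rik* and *Nefl* held none of the glia, and 3 cells with neither gene each. The E12.5 cluster led by *Cck*, *Dll1* and *Neurog1* held 2 of the glia, 77 cells with neither gene and 3 *Prss56*-positive cells among its 165. In the E12.5 cluster led by *Ctnnd2* and *Fhl1* they were 5 of 283, 1.767% (0.5761 to 4.075), beside 211 cells with neither gene, and 5 lay in a cluster led by C1qb and *Tyrobp*. The clusters were given no cell type names.

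**Figure D4:**
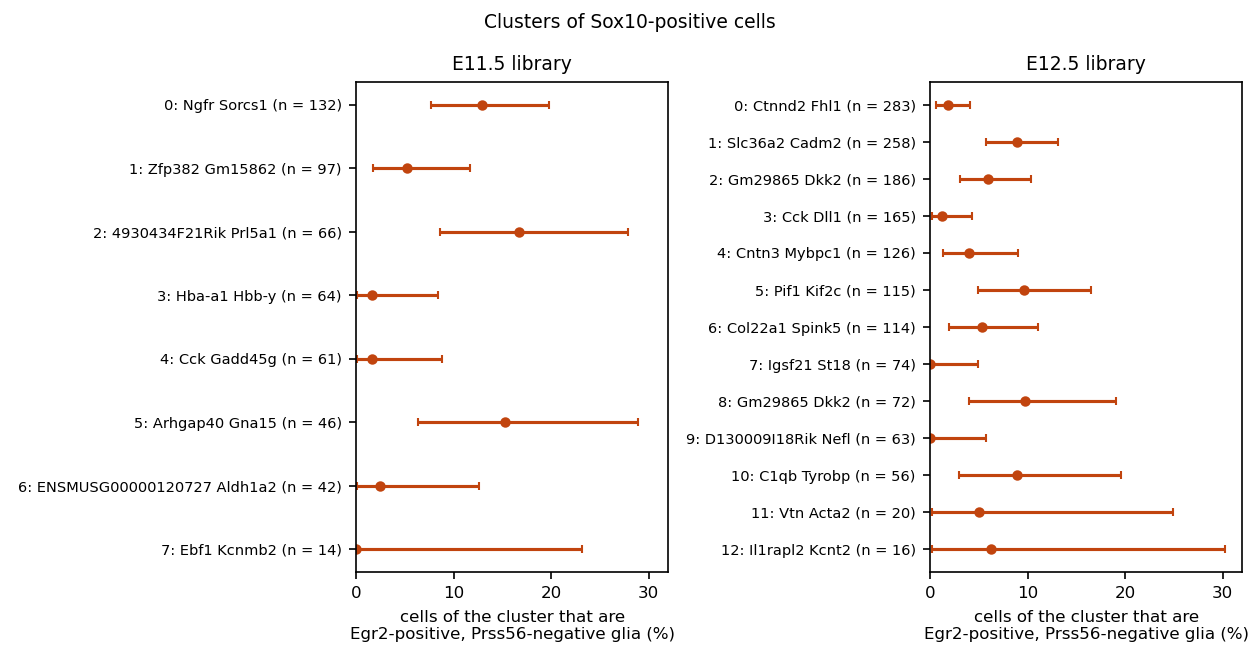
Share of each cluster of Sox10-positive cells (y axis, with its 2 leading genes and its number of cells) that are Egr2-positive, Prss56-negative glia (x axis, percent), by library. Bars are 95% exact binomial intervals; the highest share is 16.67% on E11.5 and 9.722% on E12.5.

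Before the stages are compared, the libraries themselves stood apart. In the glia, *Rps27*, a ribosomal protein gene, fell from 5256.2 to 217.5 CPM and H2ac24, a histone gene, from 1422.1 to 48.14, while *Rpl9-ps6* and *Rpl10-ps3*, copies of ribosomal protein genes, rose from 62.74 to 1114.5 and from 158.6 to 1244.6. The cells with neither gene moved alike, at 5495.8 to 223.6 for *Rps27* and 63.97 to 1122.1 for *Rpl9-ps6*. These genes have near-identical copies, and their counts are uncertain. *Xist*, the RNA of the inactive X chromosome of females, was in none of the 77 glia at E12.5, with 1 UMI in the cells with neither gene. At E11.5 it was in 6 of the 43 glia, at 113.3 CPM, in 55 of the 182 cells with neither gene, at 386.3, and in 25 of the 98 *Prss56*-positive cells, at 254.5. The groups of the E11.5 library thus differed in *Xist*, with ratios of 0.2932 (0.224 to 0.378) and 0.4452 (0.3361 to 0.5818), and the part of embryo sex in their other differences was not tested. Stage, litter and library cannot be told apart in what follows.

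Within the glia 206 of 4337 genes considered were at least 2-fold higher at E12.5, 4.75%, and 99 at least 2-fold lower, 2.28%. In the cells with neither gene 69 of the 206 and 32 of the 97 considered were also past 2-fold in the same direction. The median log2 ratio of all genes was 0.033. Without the E12.5 cell that held the myeloid UMIs, 208 genes were higher, and 16 of the 206 were no longer among them.

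Some myelin and glial genes were higher at E12.5. *Pmp22*, a myelin membrane protein, went from 20.91 to 144.4 CPM, and *Mbp*, which compacts myelin, from 15.68 to 101.6. Of 5 considered myelin genes 3 were higher and none lower, and the median log2 ratio of the 5 was 2.696. The myelin sum rose 2.283-fold (2.016 to 2.59) in the glia and 1.737-fold (1.635 to 1.847) in the cells with neither gene, a difference that was not tested. *Apoe*, a lipid carrier, went from 36.6 to 394.1 CPM, 10.77-fold (6.872 to 17.74), with up to 55 UMIs in 1 cell, and from 33.75 to 309.5 in the cells with neither gene. Of 15 Schwann lineage genes considered 3 were higher, with a sum ratio of 1.556 beside 1.652 in the cells with neither gene, and of 11 satellite glia and ganglion progenitor genes 3 were, with 1.691 beside 1.947. *Gfra3*, the artemin receptor, went from 36.6 to 153.3 CPM, and *Npr3* of the boundary cap list from 95.85 to 205.1.

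Position and division genes were lower or mixed. Of 10 Hox genes considered, *Hoxa5* and *Hoxa7* were 2-fold lower, and the Hox sum fell from 1059.6 to 666.9 CPM, a ratio of 0.6294 (0.5518 to 0.7171) beside 0.6398 in the cells with neither gene. Of 22 S phase genes 3 were lower, *Rrm2*, *Ung* and *Ccne1*, and the S phase ratio was 0.6556 (0.6072 to 0.7077) beside 0.8163 (0.7895 to 0.8441). The G2 and M phase ratio was 1.227 (1.167 to 1.29) beside 0.977 (0.9531 to 1.002), with Cenpe and *Kif23* called of 27. *Fos*, *Jund* and *Ier5* were higher among the immediate early genes, whose sum ratio was 1.471 (1.314 to 1.647) beside 1.365. A few large ratios came from single cells. Of the genes lower at E12.5, *Prl5a1* had 60 of its 61 UMIs and *Zfp382* all of its 76 in 1 cell of the E11.5 library.

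**Figure D5:**
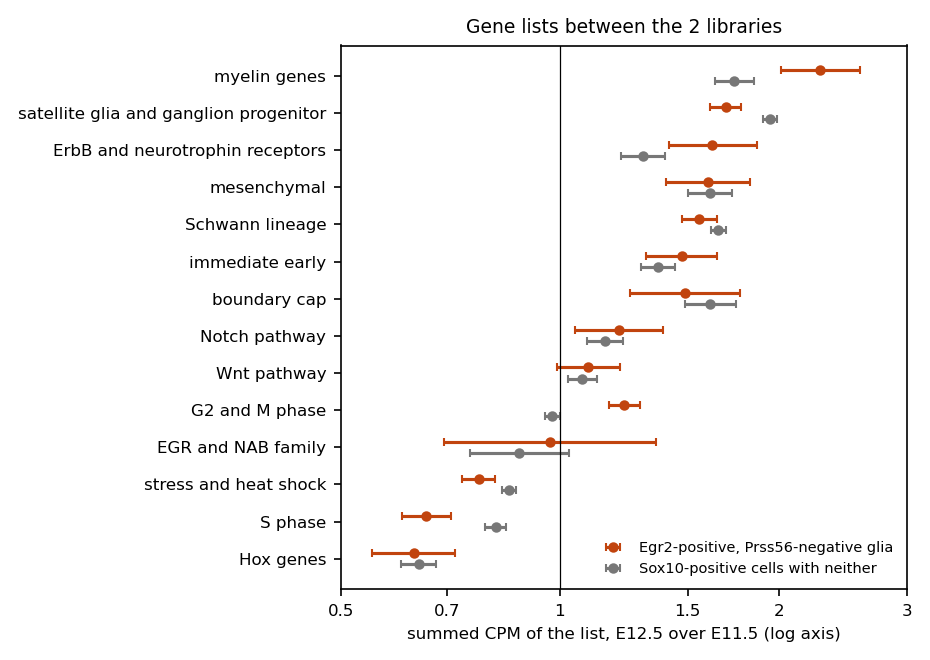
Ratio of the summed CPM of 14 gene lists at E12.5 over E11.5 (x axis, log scale) in Egr2-positive, Prss56-negative glia and in Sox10-positive cells with neither gene. Bars are 95% intervals of counting error; the myelin ratio is 2.283 in the glia and 1.737 in the cells with neither gene, and the G2 and M phase ratio 1.227 and 0.977.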

How the data were processed

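Single-cell RNA-seq libraries (10x, 3' ends) of Tomato-positive cells at E11.5 and E12.5 were analysed. The authors deposited UMI counts per gene and barcode from Cell Ranger (7.0 in the submitters' processing notes, 7.0.1 in the file header) on mm39. Whether introns or strand were used is not given in the sources used here. The files held 10287595 UMIs in 1431 barcodes and 23460243 in 3762. Cells with at most 10% mitochondrial UMIs and at least 2000 (E11.5) or 1000 (E12.5) UMIs were kept, 840 and 3563. Doublets were scored with scanpy's Scrublet and kept, with removal as an alternative.

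Counts were summed per group and library and divided to CPM. A gene was considered with at least 20 expected UMIs in the smaller sum in each library, and called by fold alone, with no test, since each stage is 1 library. The 5 genes of the rule were left out. Some genes of the lists are not reported here by name. Named genes were the 12 most changed each way in each comparison, called and most abundant members of 31 lists, and the 6 most changed each way between stages. *Ephb1*, *Wif1*, *Gm32255*, *Src*, *Frzb*, Ptprk, *Ubn2* and *2610035D17Rik* fall outside this rule and were chosen after their values were seen. The members and lists were chosen with earlier results of these data known. Clusters used 3000 variable genes, 30 components and Leiden resolution 1. Gene positions are from GENCODE on mm39. The computations were checked on simulated data. Python 3.11.15, numpy 2.4.6, scipy 1.17.1, pandas 2.3.3, scanpy 1.11.5, leidenalg 0.10.2 and matplotlib 3.10.9 were used. Alternatives changed the depth minimum and weights, the cells compared, doublets, cycling cells, the UMI minimum, the fold and the clustering.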

Additional observations from a re-analysis of the deposited data

Results flagged for a closer look

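A few genes passed 1.5-fold in opposite directions in the 2 libraries, and none of these differences between libraries was tested. Each is given as the log2 ratio at E11.5, that at E12.5 and their difference. Against the cells with neither gene, *Kif23*, a kinesin of dividing cells, was at -0.910 and 0.649, a difference of 1.558. *Ppp2r1b*, a scaffold subunit of protein phosphatase 2A, was at 0.791 and -0.701, a difference of -1.491. *Cobll1* was at 0.819 and -0.654 (-1.473), Blvrb, a biliverdin reductase, at -0.606 and 0.836 (1.442), *Gulp1*, an engulfment adaptor, at -0.845 and 0.595 (1.440), and *Tmed1* at -0.663 and 0.607 (1.270).

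Against the *Prss56*-positive cells, *Ppp2r1b* was at 0.817 and -0.778, a difference of -1.595. *Ddx52*, an RNA helicase, was at -0.664 and 0.791 (1.455), *2610020C07Rik* at 0.747 and -0.607 (-1.354), *Prpf6*, a splicing factor, at -0.733 and 0.586 (1.319), and *Mettl26* at 0.611 and -0.709 (-1.319). *Kmt2a*, a histone methyltransferase, was at 0.598 and -0.706 (-1.304), *Kif13a*, a kinesin, at -0.632 and 0.658 (1.290), and *Ung*, a uracil-DNA glycosylase, at 0.609 and -0.667 (-1.276).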

How the results depend on the processing

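Each number is a count of genes. For genes higher and lower than in the cells with neither gene, 12 and 17 in the report, the counts were 33 and 105 against comparison cells chosen without the conditions on *Sox8* and *Pou4f1*, and 5 and 34 with each cell weighted equally. They were 35 and 72 at a minimum of 10 expected UMIs, 2 and 4 at 50, 0 and 2 at 2-fold, and 1 and 0 without cycling cells, and with members of at least 2 *Egr2* UMIs 6 were lower. For genes higher than in the *Prss56*-positive cells, 3 in the report, they were 6 with comparison cells weighted to the members' depths, 8 with equal weights, 5 without cells of doublet score 0.2 or more, 5 without the cell with myeloid UMIs, 1 with at least 2 *Egr2* UMIs, 1 without cycling cells, 15 and 0 at minima of 10 and 50, and 0 at 2-fold. For genes lower than there, 21 in the report, they were 12 without the *Sox8* and *Pou4f1* conditions, 8 with at least 2 *Egr2* UMIs, 0 without cycling cells, 78 and 3 at minima of 10 and 50, and 3 at 2-fold. Between stages, 206 higher and 99 lower in the report, they were 46 and 31 with at least 2 *Egr2* UMIs, 2 and 0 without cycling cells, 470 and 221 at a minimum of 10, 49 and 26 at 50, and 589 and 387 at 1.5-fold. The minima and the smaller groups change how many genes can be considered, and for the other settings the cause was not tested. The share of cells with *Egr2* was 8.108% with and 3.846% without *Prss56* at E11.5 and 11.79% and 4.378% at E12.5 after thinning, and 12.24%, 5.474%, 8.411% and 2.436% in that order when 2 UMIs were asked. The cluster with most members held 20.93% of them at E11.5 under 15 components and 54.55% at E12.5 under a resolution of 0.5. The log2 ratio of *Cdkn1c* against *Prss56*-positive cells at E11.5 was -0.042 without the *Sox8* and *Pou4f1* conditions, the only one to reverse among the 48 and 30 ratios of named called genes that were recomputed. Of the 48 against the cells with neither gene (a gene in a library), 34 stayed past 1.5-fold with equal weights, 34 without the cell with most UMIs of the gene, 43 with depth weights and 38 without the *Sox8* and *Pou4f1* conditions, where 7 moved beyond their counting interval and 3 fell under the minimum. Of 30 against the *Prss56*-positive cells these were 26, 28, 29 and 22. With at least 2 *Egr2* UMIs 43 and 25 fell under the minimum, and 3 and 4 of the remaining 5 each moved beyond their interval. No paired analysis was possible because the labels give each stage 1 library and no replicate numbers. Groups of cells were compared within each library, and the libraries, which differ in stage, were not used as replicate pairs.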
